A study of Mus musculus with 15 samples.

Results

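Retinoid signalling was described through 8 genes: Cyp26b1, Rdh10, Rdh11, Dhrs3, Rara, Rarg, Rxra and Rxrb. They were taken by gene symbol from the deposited tables of read counts, where they are 8 of 13172 genes listed. All 8 are listed for every group and all 8 passed the low-count filter. Cyp26b1 was chosen because of its change between the Dox and Control libraries. Its values in comparisons that use either group, and with the drug after the Hif1a siRNA, are therefore given as a description without a test. The counts of calls for NC_siRNA against Control and for the drug after the Hif1a siRNA still include it. The other members were chosen for their place in the pathway, with earlier results of these data known.

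The cells were B16.F10, a mouse melanoma line labelled wild type, and RNA-seq libraries of 15 samples were used, all from cells kept in 1% oxygen. Hif1a_siRNA_Dox cells received 25 nM siRNA against Hif1a as lipoplexes and, after 24 h, 0.25 µM doxorubicin for 24 h. Dox cells received the same drug dose and their labels name no siRNA. Hif1a_siRNA cells received the Hif1a siRNA alone, NC_siRNA cells received a negative control siRNA, and Control cells are labelled untreated. Each group has 3 libraries. Doxorubicin is an anthracycline that intercalates into DNA and poisons topoisomerase II. Hif1a is the gene of HIF-1α, the part of the HIF-1 transcription factor that is stabilised in low oxygen. For the siRNA groups without drug, no harvest time after transfection is given in the sources used here, and it may differ from that of Hif1a_siRNA_Dox. All groups come from 1 cell line, and no group was kept at a higher oxygen level.

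Cells take up vitamin A as retinol, which dehydrogenases such as RDH10 oxidise to retinal. Enzymes such as DHRS3 and RDH11 can turn retinal back into retinol. Aldehyde dehydrogenases oxidise retinal to all-trans retinoic acid, and the CYP26 cytochromes P450, CYP26B1 among them, inactivate the acid. Retinoic acid binds the nuclear receptors RARα, RARβ and RARγ, which bind DNA as dimers with an RXR. Cyp26 genes, Dhrs3 and Rarb are themselves known retinoic acid targets in several tissues, and retinoic acid is known to slow growth and promote differentiation in B16 melanoma cells.

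Libraries held 23825110 to 28734303 reads assigned to genes. Hif1a had 13.5, 11.6 and 14.3 CPM (reads scaled to the TMM-adjusted library size) in Hif1a_siRNA_Dox, against 138, 137 and 153 CPM in Dox. It had 16.7, 15.9 and 18.9 CPM in Hif1a_siRNA, against 289, 268 and 264 CPM in NC_siRNA, and 205, 231 and 216 CPM in Control. Every library with the Hif1a siRNA was therefore below every library without it. Of 10 melanocyte markers 9 are listed in all groups. None of 6 leukocyte, 4 endothelial or 5 keratinocyte markers is listed. Of 5 fibroblast markers, Col1a1 and Pdgfra are listed. Their summed level was 61.8 to 85.7 CPM in Hif1a_siRNA_Dox, 37.2 to 60.7 CPM in Dox, 3.93 to 5.01 CPM in Hif1a_siRNA, 2.49 to 3.08 CPM in NC_siRNA and 6.22 to 6.62 CPM in Control. The summed level of the 9 melanocyte markers was 29900 to 36800 CPM in Hif1a_siRNA_Dox, 40100 to 46700 CPM in Dox, 9170 to 9580 CPM in Hif1a_siRNA, 8360 to 9030 CPM in NC_siRNA and 13500 to 14700 CPM in Control. Mitochondrial genes took 3.9% to 5.07% of reads in Hif1a_siRNA_Dox, 3.37% to 4.07% in Dox, 1.64% to 2.11% in Hif1a_siRNA, 1.79% to 2.06% in NC_siRNA and 1.38% to 1.47% in Control. The melanocyte list did not move as 1: Sox10 averaged 29.9 CPM in Hif1a_siRNA_Dox and 28.5 CPM in Dox, against 181 CPM in Hif1a_siRNA, 213 CPM in NC_siRNA and 200 CPM in Control. Tyr and Gpr143 also had lower means in Dox, at 57.9 and 9.96 CPM, than in Control, at 78.1 and 12.8 CPM. The 3 summed measures were higher with doxorubicin, and their part in the results was not tested. In bulk RNA, fewer cells making a transcript and less of it per cell cannot be told apart.

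Upstream sequences are shown first as context for Cyp26b1, the gene with the widest range between groups, and for Rarg and Dhrs3, whose drug effects differed between cells with and without the Hif1a siRNA. RefSeq windows of 250 bases before annotated starts were used for 7 of the 8 members, all except Rdh10, 16 windows in all, some of which overlap. Some of these starts lie inside the gene. The second Rarg window and the Dhrs3 window shown lie within the spans of their genes. The Cyp26b1 window partly overlaps the span of its gene. Distances are counted from the start that follows each window, not from the outermost start of the gene. They were searched on both strands for the retinoid receptor hexamer in its forms AGGTCA and also GGGTCA, together with AGTTCA and also GGTTCA. Other motifs were ACGTG, a core bound by HIF-1, then GCGTG, a core bound by HIF-1 and the related aryl hydrocarbon receptor, and lastly TATAAA. These cores were counted separately. The core ACGTG overlaps its own reverse complement in CACGTG. Capitals mark matches, and each sequence runs 5′ to 3′ on the strand of the gene and ends at the base before the start.
Cyp26b1, chr6:84593811-84594060, minus strand, GRCm38.p6: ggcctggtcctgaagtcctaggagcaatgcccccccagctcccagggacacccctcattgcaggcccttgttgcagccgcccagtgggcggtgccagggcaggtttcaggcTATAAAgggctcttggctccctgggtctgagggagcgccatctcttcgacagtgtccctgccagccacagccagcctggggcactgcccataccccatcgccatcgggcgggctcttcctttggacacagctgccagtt
Rarg first window, chr15:102257523-102257772, minus strand, GRCm38.p6: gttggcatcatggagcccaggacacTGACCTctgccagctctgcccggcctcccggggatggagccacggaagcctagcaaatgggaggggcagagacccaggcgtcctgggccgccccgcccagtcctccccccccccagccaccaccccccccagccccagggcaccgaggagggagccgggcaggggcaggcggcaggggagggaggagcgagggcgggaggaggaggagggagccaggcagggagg
Rarg second window, chr15:102246501-102246750, minus strand, GRCm38.p6: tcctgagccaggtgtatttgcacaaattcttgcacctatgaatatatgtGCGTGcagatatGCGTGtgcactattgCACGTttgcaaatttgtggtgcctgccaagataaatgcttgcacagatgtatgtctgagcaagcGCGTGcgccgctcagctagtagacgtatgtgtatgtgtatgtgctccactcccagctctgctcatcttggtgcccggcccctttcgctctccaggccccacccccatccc
Dhrs3 first window, chr4:144892577-144892826, plus strand, GRCm38.p6: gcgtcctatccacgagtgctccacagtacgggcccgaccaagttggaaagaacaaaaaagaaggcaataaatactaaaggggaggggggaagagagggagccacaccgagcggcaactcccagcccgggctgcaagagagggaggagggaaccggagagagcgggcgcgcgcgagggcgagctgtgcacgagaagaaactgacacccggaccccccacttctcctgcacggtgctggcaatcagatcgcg

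The Cyp26b1 window holds TATAAA beginning 139 bases before the start and none of the other motifs. TATAAA occurs in 12.4% of all 32851 mouse windows. The first Rarg window holds 1 receptor hexamer on the opposite strand, 225 bases before the start, and the second holds 1 ACGTG and 3 GCGTG. The Dhrs3 window holds none. Receptor hexamers are in 5 of the 16 member windows and in 38.6% of all windows. ACGTG is in 4 of 16 and in 16.6% of all, and GCGTG is in 5 of 16 and in 28.2% of all. Direct repeats of the hexamer with 5 bases between them are in 0 of 16 and in 0.0883% of all windows, and with 2 bases between in 0 of 16 and 0.174% of all. A match in a window is a description of letters, not evidence of binding.

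**Figure D1:**
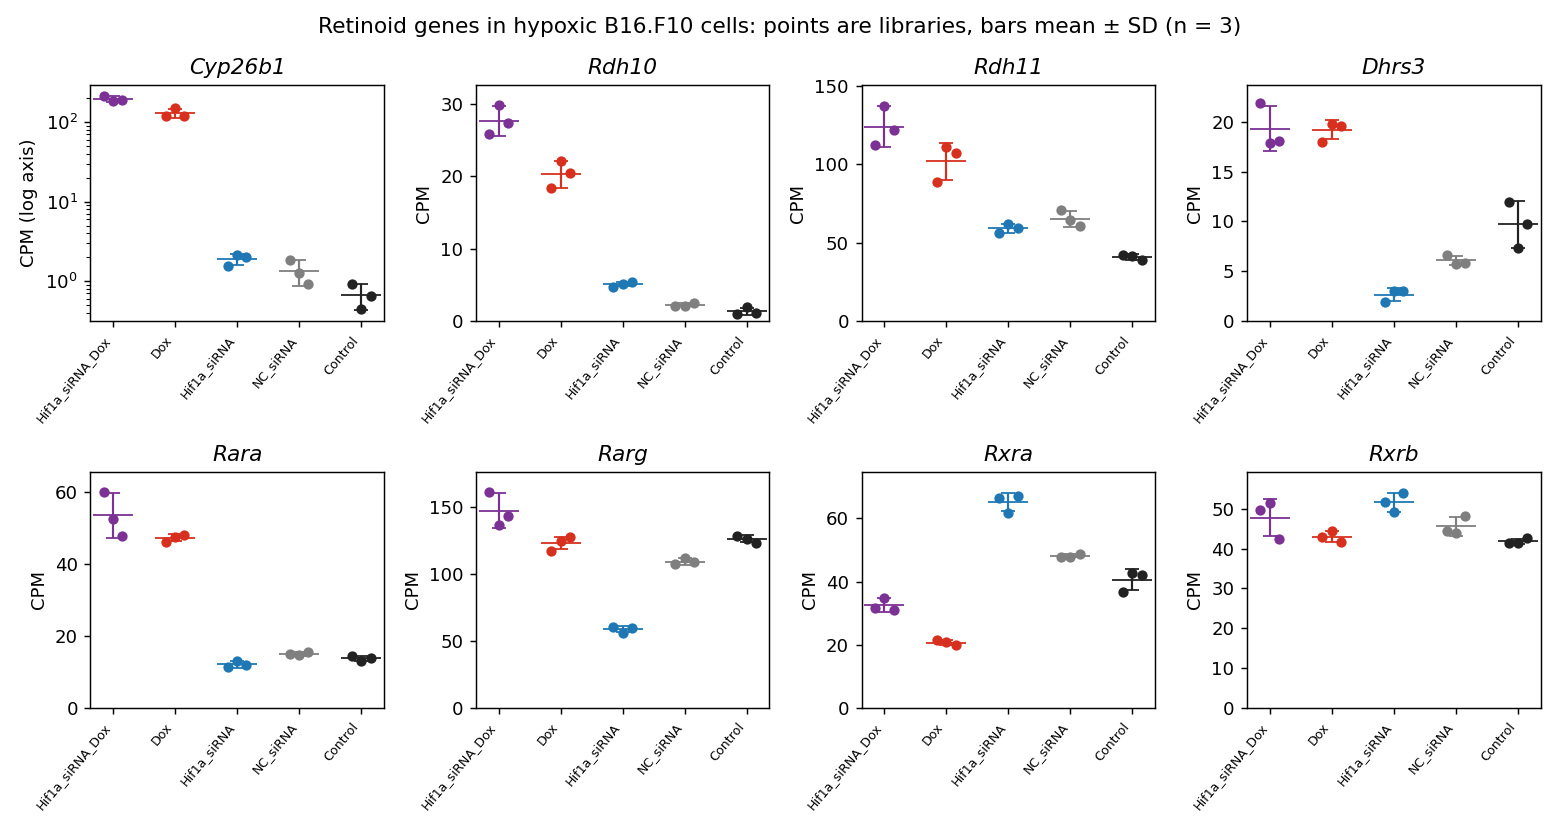
CPM of the 8 retinoid genes in the 5 groups, with points for libraries and bars for the mean and SD of 3 libraries; Cyp26b1 is on a log axis and the others on linear axes from 0. Cyp26b1, Rdh10, Rdh11, Dhrs3 and Rara are highest in the doxorubicin groups, Rxra is highest in Hif1a_siRNA (mean 65.1 CPM), and Rxrb stays between 41.3 and 53.9 CPM in all libraries.

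Cyp26b1, the retinoic acid hydroxylase (gene ID 232174, chr6:84571414-84593908, minus strand), was at 2.12 CPM or lower in every library without doxorubicin and at 119 CPM or higher in every library with it. It had 215, 185 and 190 CPM in Hif1a_siRNA_Dox and 119, 151 and 121 CPM in Dox, against 1.55, 2.12 and 2.04 CPM in Hif1a_siRNA, 1.87, 1.25 and 0.93 CPM in NC_siRNA and 0.926, 0.441 and 0.649 CPM in Control. The 6 drug-treated libraries lay far above the 9 others, and every Hif1a_siRNA_Dox library lay above every Dox library. In reads, the range was 4664 to 6038 in Hif1a_siRNA_Dox and 2720 to 3590 in Dox, against 50 to 70 in Hif1a_siRNA, 25 to 52 in NC_siRNA and 10 to 21 in Control. The fold changes therefore rest on few reads in the cells without doxorubicin.

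The choice of Cyp26b1 did not rest on the Hif1a_siRNA_Dox and Hif1a_siRNA libraries, although results of all groups were known by then. Between these groups Cyp26b1 rose with doxorubicin. Its mean was 196 ± 16.2 CPM in Hif1a_siRNA_Dox and 1.9 ± 0.305 CPM in Hif1a_siRNA (SD, n = 3 each). The log2 fold change was 6.68 ± 0.16 (SE), or 103-fold. It is given without a test, since the gene was chosen for its rise with the drug. As a description, the log2 fold change was 7.59 ± 0.19 between Dox, at 130 ± 17.7 CPM, and Control, at 0.672 ± 0.244 CPM. Also as a description, Hif1a_siRNA_Dox exceeded Dox 1.51-fold, a log2 difference of 0.59 ± 0.11. The drug's effect on the log2 scale was smaller by 0.91 ± 0.31 with knockdown than without, while the mean level was higher in Hif1a_siRNA_Dox than in Dox and in Hif1a_siRNA than in Control.

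Among cells without doxorubicin, the order of Cyp26b1 was Hif1a_siRNA, then NC_siRNA, then Control, and the ranges of Hif1a_siRNA and NC_siRNA overlapped. The knockdown difference, a log2 value of 0.49 with a 95% interval of 0.04 to 0.95, did not pass (adjusted p = 0.065, edgeR). It passed without NC_siRNA replicate 1, at 0.81 and an adjusted p of 0.0076, and without Hif1a_siRNA replicate 1, at 0.61 and 0.036 (edgeR). Without NC_siRNA replicate 3 it was 0.29, with an adjusted p of 0.3 (edgeR). As a description, since the Control libraries were used in choosing Cyp26b1, NC_siRNA lay 1.01 ± 0.31 above Control. Without NC_siRNA replicate 1 this was 0.69.

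Rdh10 (gene ID 98711, chr1:16105882-16132550), the retinol dehydrogenase that makes retinal, followed the same order of groups as Cyp26b1. It had 25.8, 29.8 and 27.3 CPM in Hif1a_siRNA_Dox and 18.4, 22.1 and 20.4 CPM in Dox, against 4.79, 5.17 and 5.41 CPM in Hif1a_siRNA, 2.16, 2.16 and 2.53 CPM in NC_siRNA and 1.06, 1.94 and 1.17 CPM in Control. No neighbouring groups in this order overlapped. Rdh10 rose 14.6-fold in Dox over Control, a log2 fold change of 3.87 ± 0.17 (adjusted p = 7.5e-16, edgeR). After knockdown the rise with drug was 2.43 ± 0.14 (adjusted p = 1.1e-13, edgeR). The difference of these effects was -1.44 ± 0.23 (adjusted p = 1.1e-05, edgeR). Knockdown alone came with a rise of 1.17 ± 0.17 over NC_siRNA (adjusted p = 1.4e-06, edgeR), and NC_siRNA lay 0.72 ± 0.20 above Control (adjusted p = 0.0038, edgeR). Under the drug, Hif1a_siRNA_Dox exceeded Dox by 0.44 ± 0.13 (adjusted p = 0.0088, edgeR), a call lost without Dox replicate 1 (0.38, adjusted p = 0.052, edgeR).

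Rdh11 (gene ID 17252, chr12:79174233-79191855), a reductase of retinal with broad expression, had 112, 137 and 122 CPM in Hif1a_siRNA_Dox and 88.4, 111 and 107 CPM in Dox. It had 56.0, 62.1 and 59.3 CPM in Hif1a_siRNA, 70.7, 64.5 and 60.4 CPM in NC_siRNA and 42.0, 41.6 and 38.9 CPM in Control. All drug-treated libraries were above all others, and the siRNA groups without drug overlapped each other and lay above Control. The log2 fold change with drug was 1.07 ± 0.09 after knockdown (adjusted p = 1.2e-10, edgeR) and 1.32 ± 0.09 without siRNA (adjusted p = 4e-12, edgeR). The difference between these effects, -0.25 ± 0.13, did not pass (adjusted p = 0.097, edgeR). It passed without Dox replicate 1 (-0.34, adjusted p = 0.023, edgeR) and without Hif1a_siRNA_Dox replicate 2 (-0.35, adjusted p = 0.024, edgeR). Hif1a_siRNA_Dox exceeded Dox by 0.28 ± 0.09 (adjusted p = 0.014, edgeR), a call lost without Dox replicate 1 or without Hif1a_siRNA_Dox replicate 2 (0.19 and an adjusted p of 0.11 in each case, edgeR). Hif1a_siRNA and NC_siRNA differed by -0.14 ± 0.09, which did not pass (adjusted p = 0.17, edgeR). NC_siRNA exceeded Control by 0.67 ± 0.09 (adjusted p = 1.1e-06, edgeR).

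Dhrs3 (gene ID 20148, chr4:144892534-144928209), which reduces retinal and is known to work in a complex with RDH10, differed in its pattern from Rdh10. It had 21.9, 17.9 and 18.1 CPM in Hif1a_siRNA_Dox and 18, 19.8 and 19.6 CPM in Dox, against 1.93, 3.05 and 3.01 CPM in Hif1a_siRNA, 6.66, 5.75 and 5.88 CPM in NC_siRNA and 12.0, 7.32 and 9.78 CPM in Control. The drug-treated groups overlapped, and the groups without drug were apart, with Hif1a_siRNA lowest. Knockdown came with a fall by 1.19 on the log2 scale (SE 0.19, adjusted p = 5e-06, edgeR). NC_siRNA lay below Control too, at -0.67 ± 0.17 (adjusted p = 0.0014, edgeR). With drug, Dhrs3 rose by 2.85 ± 0.18 after knockdown (adjusted p = 3.7e-13, edgeR) and by 0.98 ± 0.16 without siRNA (adjusted p = 6.3e-06, edgeR). The drug effects differed by 1.88 ± 0.24 (adjusted p = 5.6e-07, edgeR). Hif1a_siRNA_Dox and Dox differed by 0.01 with a 95% interval of -0.29 to 0.31, which did not pass (adjusted p = 0.96, edgeR). Differences within that interval, in either direction, remain compatible with these libraries.

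Rara (gene ID 19401, chr11:98927800-98974942), the gene of RARα, separated the drug-treated libraries from those without drug. It had 60.2, 52.7 and 47.9 CPM in Hif1a_siRNA_Dox and 46.2, 47.7 and 48.2 CPM in Dox, against 11.3, 13.0 and 12.0 CPM in Hif1a_siRNA, 15.0, 14.6 and 15.6 CPM in NC_siRNA and 14.5, 13.2 and 13.8 CPM in Control. The drug-treated groups overlapped each other and lay above all libraries without drug. The rise with drug was 2.15 ± 0.10 on the log2 scale after knockdown (adjusted p = 7.4e-16, edgeR) and 1.78 ± 0.10 without siRNA (adjusted p = 3.2e-14, edgeR). The effects differed by 0.37 ± 0.13 (adjusted p = 0.021, edgeR), a call lost without Hif1a_siRNA replicate 1 (0.31, adjusted p = 0.077, edgeR) or without Hif1a_siRNA_Dox replicate 1 (0.28, adjusted p = 0.063, edgeR). Knockdown alone came with a fall by 0.32 (SE 0.10, adjusted p = 0.0066, edgeR). Hif1a_siRNA_Dox and Dox differed by 0.18 ± 0.09, which did not pass (adjusted p = 0.11, edgeR). It passed without Hif1a_siRNA_Dox replicate 3 (adjusted p = 0.032, edgeR) and with DESeq2 (0.23, adjusted p = 0.048).

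Rarg (gene ID 19411, chr15:102234938-102257522), the gene of RARγ, changed with the drug in knockdown cells and not detectably in cells without siRNA. It had 161, 136 and 143 CPM in Hif1a_siRNA_Dox, 117, 124 and 127 CPM in Dox, 60.1, 55.9 and 59.5 CPM in Hif1a_siRNA, 107, 112 and 109 CPM in NC_siRNA and 128, 126 and 123 CPM in Control. Hif1a_siRNA stood apart as the lowest group, and Dox overlapped Control. Knockdown came with a fall by 0.90 on the log2 scale (SE 0.07, adjusted p = 6.7e-11, edgeR). The drug came with a rise of 1.33 ± 0.07 after knockdown (adjusted p = 1.7e-14, edgeR), against -0.03 without siRNA, with a 95% interval of -0.17 to 0.10 (adjusted p = 0.65, edgeR). The difference of these effects was 1.36 ± 0.10 (adjusted p = 6.7e-11, edgeR). Hif1a_siRNA_Dox also exceeded Dox, by 0.26 ± 0.07 (adjusted p = 0.004, edgeR).

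Rxra (gene ID 20181, chr2:27676445-27763319), the gene of the shared dimer partner RXRα, was the member that fell with the drug. It had 31.6, 34.9 and 30.9 CPM in Hif1a_siRNA_Dox and 21.5, 20.8 and 20 CPM in Dox, against 66.3, 61.8 and 67.1 CPM in Hif1a_siRNA, 47.8, 47.9 and 48.7 CPM in NC_siRNA and 36.8, 42.8 and 42.1 CPM in Control. No neighbouring groups overlapped. The change with drug was -1.0 ± 0.08 after knockdown (adjusted p = 4.3e-11, edgeR) and -0.97 ± 0.08 without siRNA (adjusted p = 2e-10, edgeR). These effects differed by -0.03 ± 0.12, which did not pass (adjusted p = 0.82, edgeR). Without drug, knockdown came with a rise of 0.44 ± 0.08 over NC_siRNA (adjusted p = 3.8e-05, edgeR). Under drug, Hif1a_siRNA_Dox exceeded Dox by 0.65 ± 0.08 (adjusted p = 2.4e-06, edgeR). Dox labels name no siRNA, so delivery and knockdown cannot be told apart there. Rxra also averaged more in NC_siRNA, at 48.1 CPM, than in Control, at 40.6 CPM.

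Rxrb (gene ID 20182, chr17:34031812-34038403), the gene of RXRβ, varied least. Its group means ran from 51.6 ± 2.31 CPM in Hif1a_siRNA to 41.8 ± 0.731 CPM in Control, a 1.23-fold range, and all neighbouring groups overlapped. In the fit of all libraries it passed the test in none of the 6 comparisons. The largest estimate was 0.18 for knockdown, with a 95% interval of 0.02 to 0.34 (adjusted p = 0.052, edgeR). It passed there without NC_siRNA replicate 3 (0.22, adjusted p = 0.036, edgeR), after knockdown with drug without Hif1a_siRNA_Dox replicate 2 (-0.22, adjusted p = 0.022, edgeR) and between Hif1a_siRNA_Dox and Dox without Hif1a_siRNA_Dox replicate 3 (0.23, adjusted p = 0.025, edgeR).

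**Figure D2:**
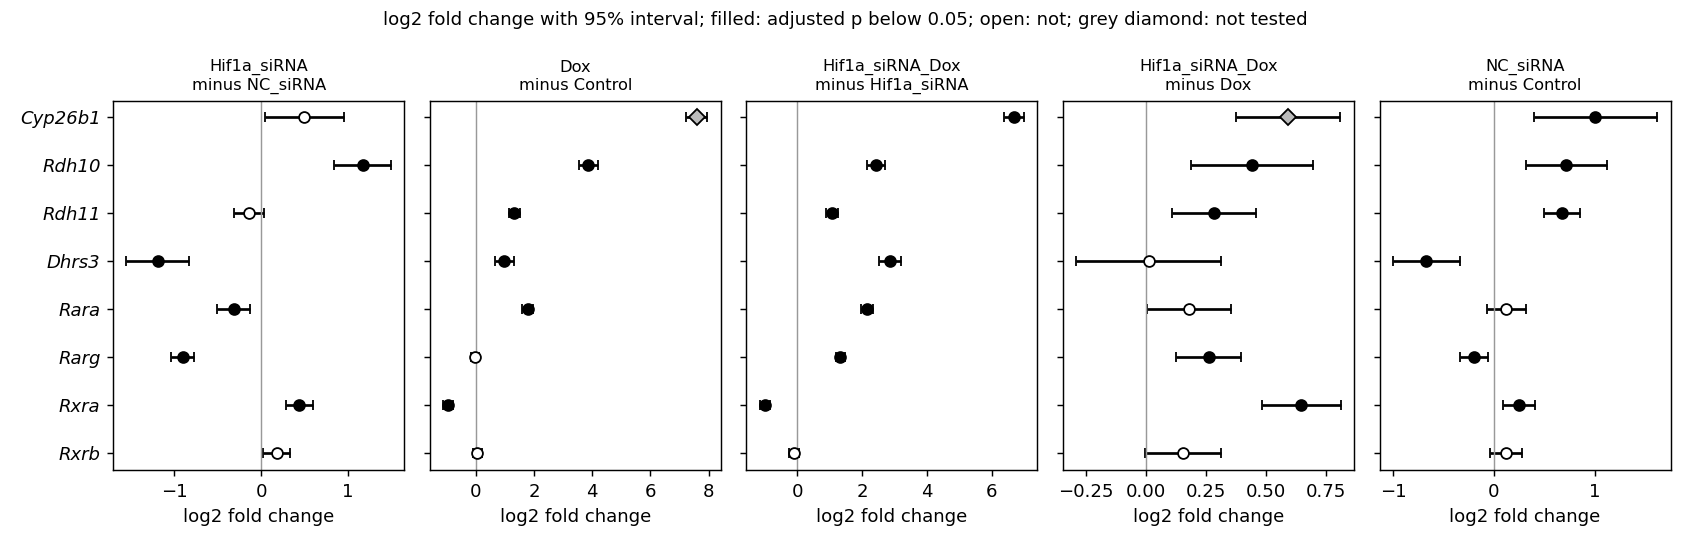
Log2 fold changes with 95% intervals of the 8 retinoid genes in the 5 comparisons of groups, each panel on its own axis, filled where the adjusted p was below 0.05, with grey diamonds where Cyp26b1 was not tested. The Cyp26b1 points for NC_siRNA minus Control and Hif1a_siRNA_Dox minus Hif1a_siRNA are drawn filled but are descriptions. The gene was chosen for its change between Dox and Control. Doxorubicin after knockdown gives 2.85 for Dhrs3 and 1.33 for Rarg, against 0.98 and -0.03 without siRNA, while Rxra is near -1 in each.

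Read by comparison, doxorubicin after knockdown called 7 of 8 members, 6 higher and 1 lower, where 84.2% of all 12721 genes tested were called, 42.6% higher and 41.6% lower. The members' median log2 fold change was 1.74, against 0.04 over all genes. This count and median include Cyp26b1, chosen for its change with the drug, which raises both. Its call is a description. Without it the middle value of the other 7 members is that of Rarg, 1.33. The count and median are also not on the same set as those for Dox against Control. The groups' ranges did not overlap for 7 of 8 members, and for 85.2% of all genes. Dox against Control called 5 of the 7 members other than Cyp26b1, 4 higher and 1 lower, where 83.8% of all genes were called, 43.9% higher and 39.8% lower, with medians of 0.98 and 0.10. The ranges did not overlap for 5 of these 7 members, and for 84.9% of all genes. With so many genes called, the number of members called is near the background.

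Knockdown called 5 of 8 members, 2 higher and 3 lower, against 67.7% of all genes, 36.4% higher and 31.2% lower, and the medians were 0.02 and 0.06. The ranges did not overlap for 6 of 8 members, and for 77.3% of all genes. Hif1a_siRNA_Dox against Dox called 4 of 7, all higher, against 42.2% of genes in either direction and 21.5% higher. Its medians were 0.26 for members and 0.01 for all genes, and the ranges did not overlap for 4 of 7 members and for 45.6% of all genes. The count was 2 without Dox replicate 1, where Rdh10 and Rdh11 were lost. Because Dox labels name no siRNA, delivery of the siRNA is part of this difference.

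NC_siRNA against Control called 6 of 8 members, 4 higher and 2 lower, against 66.8% of genes, 33.1% higher and 33.7% lower, with medians of 0.19 and -0.01. The ranges were apart for all 8 members and for 72.7% of all genes. Of these calls, Cyp26b1 and Rarg were lost without NC_siRNA replicate 1 (adjusted p = 0.052 for Rarg, edgeR) and Rxra without Control replicate 1 (adjusted p = 0.063, edgeR). The Cyp26b1 call is not evidence of a change, because the Control libraries were used in choosing the gene. The difference of the drug effects called 4 of 7, 3 higher and 1 lower, against 58.6% of genes, 26.3% higher and 32.3% lower, with medians of -0.03 and -0.06. Without Dox replicate 1, or without Hif1a_siRNA_Dox replicate 2, 2 members were lower. Without Hif1a_siRNA replicate 1, or without Hif1a_siRNA_Dox replicate 1, 2 members were higher, since Rara was lost. Comparisons that share a group are not independent of each other.

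The balance among receptor genes was set out per length, as CPM per kilobase of exon. Rarg had the highest mean of the 4 receptor members in every group, at 34.5 CPM per kilobase in Hif1a_siRNA_Dox, 28.8 in Dox, 13.7 in Hif1a_siRNA, 25.7 in NC_siRNA and 29.5 in Control. In Hif1a_siRNA its libraries, at 13.1 to 14.1, overlapped those of Rxrb, at 12.4 to 13.6. Rara took 25.7% ± 1.41 of the summed Rara, Rarb and Rarg level in Hif1a_siRNA_Dox and 26.2% ± 0.286 in Dox. It took 16.3% ± 1.48 in Hif1a_siRNA, 11.5% ± 0.445 in NC_siRNA and 9.49% ± 0.314 in Control (SD, n = 3 each). Rxra took 33.1% ± 1.44 of the summed Rxra and Rxrb level in Hif1a_siRNA_Dox and 26.0% ± 0.652 in Dox, against 47.9% ± 0.426 in Hif1a_siRNA, 43.5% ± 1.03 in NC_siRNA and 41.3% ± 1.93 in Control. The drug-treated groups thus held a larger Rara share and a smaller Rxra share than the groups without drug. On the same scale Cyp26b1 stood at 36.7 CPM per kilobase in Hif1a_siRNA_Dox and 24.3 in Dox, against 0.356 in Hif1a_siRNA, 0.252 in NC_siRNA and 0.126 in Control.

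**Figure D3:**
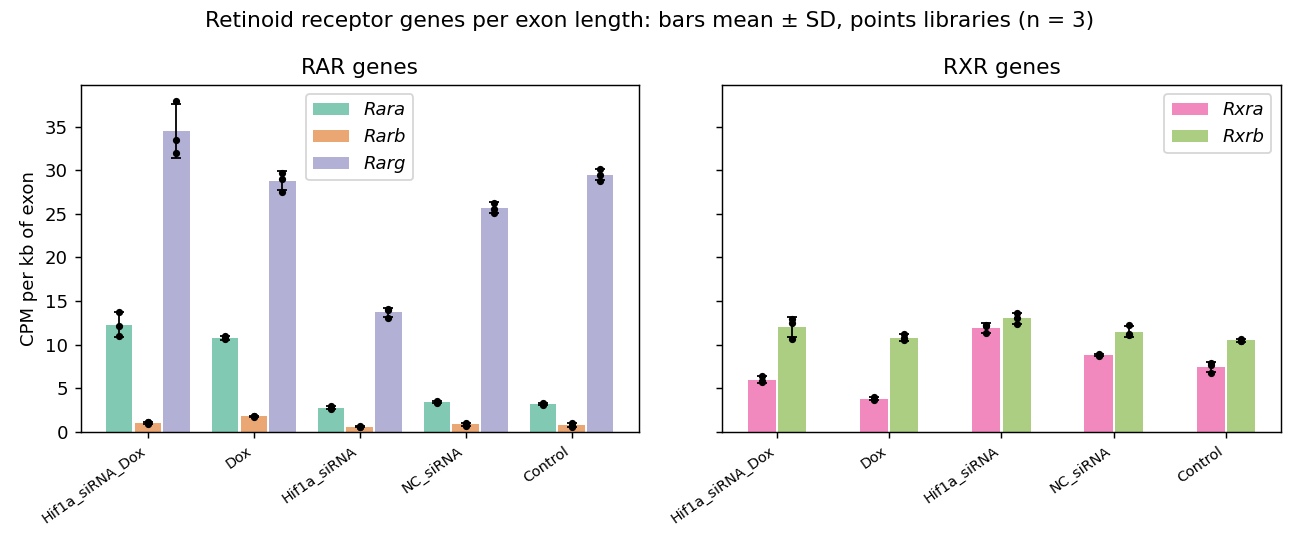
CPM per kilobase of exon of the RAR genes (left) and RXR genes (right) by group, with bars for means, error bars for SD and points for the 3 libraries. Rarg is the tallest RAR bar in each group, lowest in Hif1a_siRNA at 13.7, and Rara stands at 12.3 in Hif1a_siRNA_Dox and 10.8 in Dox, against 3.17 in Control.

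The rest of the pathway was read from a list of 71 further genes, of which 41 are listed for all groups and 29 for none, with Thrb listed for some. Genes not listed include Cyp26a1 and Cyp26c1, the other retinoic acid hydroxylases, Aldh1a1 and Aldh1a2, which make the acid, Stra6, the retinol importer, and Lrat, which esterifies retinol. Cyp26b1 is thus the only Cyp26 gene listed. After knockdown, doxorubicin called 22 of the 41 higher and 11 lower, with a median of 0.31, and without siRNA 22 higher and 13 lower, with a median of 0.68. Over all genes 42.6% were higher and 41.6% lower after knockdown, and 43.9% higher and 39.8% lower without siRNA.

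The largest increases were the same genes in each drug comparison. Vdr, the vitamin D receptor and an RXR partner, averaged 50.9 ± 7.06 CPM in Hif1a_siRNA_Dox and 0.557 ± 0.115 CPM in Hif1a_siRNA, and 43.7 ± 6.8 CPM in Dox and 0.539 ± 0.134 CPM in Control. Its log2 fold changes were 6.50 ± 0.19 (adjusted p = 5.3e-19, edgeR) and 6.33 ± 0.21 (adjusted p = 2e-18, edgeR). Crabp2, which carries retinoic acid to RARs, averaged 28.3 ± 5.2 CPM in Hif1a_siRNA_Dox and 0.833 ± 0.0759 CPM in Hif1a_siRNA, and 34.2 ± 0.869 CPM in Dox and 1.33 ± 0.793 CPM in Control. It rose by 5.08 ± 0.24 and 4.68 ± 0.24 on the log2 scale. Rdh5, a retinol dehydrogenase known from the eye, rose by 4.59 ± 0.14 and 4.07 ± 0.15. Its mean was 42.1 CPM in Hif1a_siRNA_Dox and 1.75 CPM in Hif1a_siRNA, and 33.7 CPM in Dox and 2 CPM in Control. These rises rest on few reads without drug. Vdr had 14 to 22 reads in Hif1a_siRNA and 10 to 16 in Control. Crabp2 had 25 to 29 and 15 to 50, and Rdh5 44 to 66 and 43 to 50.

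Counts by role cover only genes listed for all groups. These are 3 of 10 transport genes, 5 of 10 retinol oxidation genes and 5 of 8 further retinoic acid targets. For esterification, storage and carotenoid cleavage, here called storage, they are 2 of 6. Without siRNA, 3 of 3 transport, 2 of 2 storage, 4 of 5 retinol oxidation and 3 of 5 further target genes rose in Dox. There 83.8% of all genes were called and 43.9% were higher. Of these targets 1, Meis2, fell. Of 3 retinal reduction genes 2 rose and 1 fell, and of 8 RXR partners 3 rose and 4 fell. Aldh1a3, the only listed gene of retinoic acid synthesis, averaged 4.48 ± 0.784 CPM in Dox and 0.7 ± 0.223 CPM in Control, a log2 fold change of 2.67 (adjusted p = 6.7e-09, edgeR). Rarb averaged 9.27 ± 0.351 CPM in Dox and 3.97 ± 1.22 CPM in Control (1.22, adjusted p = 5.5e-06, edgeR). Among 13 coregulators 3 rose and 7 fell. After knockdown the counts were 3 of 3 transport genes, 2 of 2 storage genes, 4 of 5 retinol oxidation genes and 3 of 5 targets higher, where 84.2% of all genes were called and 42.6% were higher. Of these retinol oxidation genes 1, Rdh9, was lower. Retinal reduction genes were 2 higher and 1 lower, RXR partners 4 higher and 2 lower, and coregulators 2 higher and 7 lower. Decreases in Dox were led by Rdh14, a retinal reductase (-3.13 ± 0.23, adjusted p = 1.8e-11, edgeR), Nr2f2, the orphan receptor COUP-TFII (-2.04), and Tbl1xr1, a corepressor subunit (-1.73). After knockdown they were led by Rdh14 (-2.97), the coactivator gene Ncoa3 (-2.02) and Tbl1xr1 (-1.83).

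**Figure D4:**
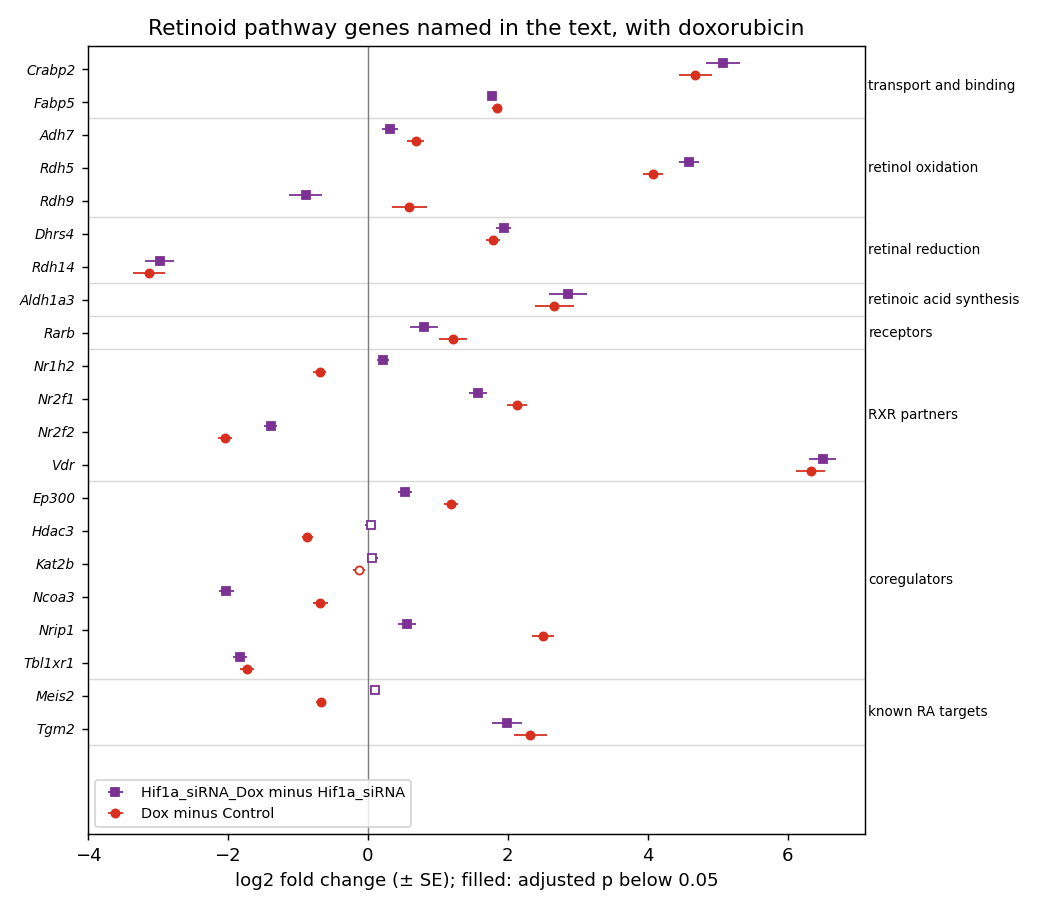
Log2 fold changes with SE of the 21 other retinoid pathway genes named in the text, with doxorubicin after knockdown and without siRNA, grouped by role and filled where the adjusted p was below 0.05. Vdr, Crabp2 and Rdh5 lie farthest to the right in each comparison and Rdh14 farthest to the left.

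Knockdown without drug called 15 of the 41 higher and 14 lower, where 36.4% of all genes were higher and 31.2% lower. The median of the 41 was -0.01. Tgm2, a transglutaminase gene induced by retinoic acid, had the largest increase (2.72 ± 0.30, adjusted p = 2.9e-08, edgeR), with a mean of 2.04 CPM in Hif1a_siRNA and 0.304 CPM in NC_siRNA. Adh7, an alcohol dehydrogenase that oxidises retinol, rose by 1.42. Nr2f2 had the largest decrease (-2.88 ± 0.09, adjusted p = 2.2e-18, edgeR), with 27.5 CPM in Hif1a_siRNA and 203 CPM in NC_siRNA. The deacetylase gene Hdac3 (-1.13) and the homeobox gene Meis2 (-1.01) followed. NC_siRNA itself stood above Control for Nr2f2, at 203 CPM in NC_siRNA and 41 CPM in Control (2.3, adjusted p = 4.2e-15, edgeR).

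Transfection with the negative control called 19 of the 41 higher and 9 lower, where 33.1% of all genes were higher and 33.7% lower. The median of the 41 was 0.25. After Nr2f2, the largest increases were in Nr2f1 (1.74), the gene of COUP-TFI, and the corepressor gene Nrip1 (1.29). The largest decreases were in Crabp2 (-2.65 ± 0.45), Tgm2 (-1.77) and Hdac3 (-0.73). Crabp2 averaged 0.206 CPM in NC_siRNA and 1.33 CPM in Control, and Tgm2 0.304 CPM in NC_siRNA and 1.05 CPM in Control, so these values rest on few reads.

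Under drug, Hif1a_siRNA_Dox against Dox called 21 of the 41 higher and 4 lower, where 21.5% of all genes were higher and 20.8% lower. The median of the 41 was 0.28. The count of higher genes was 13 at an adjusted p under 0.01, a threshold for which the share over all genes is not given here. The acetyltransferase genes Ep300 (0.78) and Kat2b (0.73) were higher. Fabp5, which carries fatty acids and retinoic acid, averaged 281 ± 6.96 CPM in Hif1a_siRNA_Dox and 648 ± 20.2 CPM in Dox (-1.21 ± 0.06, adjusted p = 7.1e-13, edgeR). Dhrs4, a retinal reductase, and Hdac3 were lower by -1.16 and -0.96 on the log2 scale, and Rarb by -0.81 (adjusted p = 0.0018, edgeR).

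The difference of the drug effects called 6 of the 41 higher and 10 lower, where 26.3% of all genes were higher and 32.3% lower. The median of the 41 was 0.004. The largest positive differences were in Nr1h2 (0.91), the gene of the liver X receptor LXRβ, Hdac3 (0.91) and Meis2 (0.77). The largest negative ones were in Nrip1 (-1.94), Rdh9 (-1.48), a retinol dehydrogenase, and Ncoa3 (-1.34). Nrip1 rose with drug by 0.56 after knockdown and by 2.50 without siRNA.

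Over the 15 libraries and 10562 genes ranked, the genes whose log2 CPM were most like that of Cyp26b1 were Trim62 (Pearson r = 0.996), a ubiquitin ligase, Gata2 (0.996), a transcription factor, Tmc6 (0.995), Lpar2 (0.995), a lysophosphatidic acid receptor, and Rgs2 (0.994), a regulator of G protein signalling. The same 5 genes led with a prior count of 0.5. The libraries fall into clusters with and without drug that these genes share, so the values describe that split. Gata2 averaged 66.1 ± 9.5 CPM in Hif1a_siRNA_Dox and 45.8 ± 4.41 CPM in Dox, against 2.44 ± 0.34 CPM in Hif1a_siRNA, 1.25 ± 0.354 CPM in NC_siRNA and 0.921 ± 0.278 CPM in Control. Among the members, Rara ranked 337 (0.974), Rdh10 681 (0.958), Rdh11 1083 (0.938), Dhrs3 3123 (0.753), Rarg 4313 (0.467), Rxrb 5362 (0.015) and Rxra 7578 (-0.761).

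**Figure D5:**
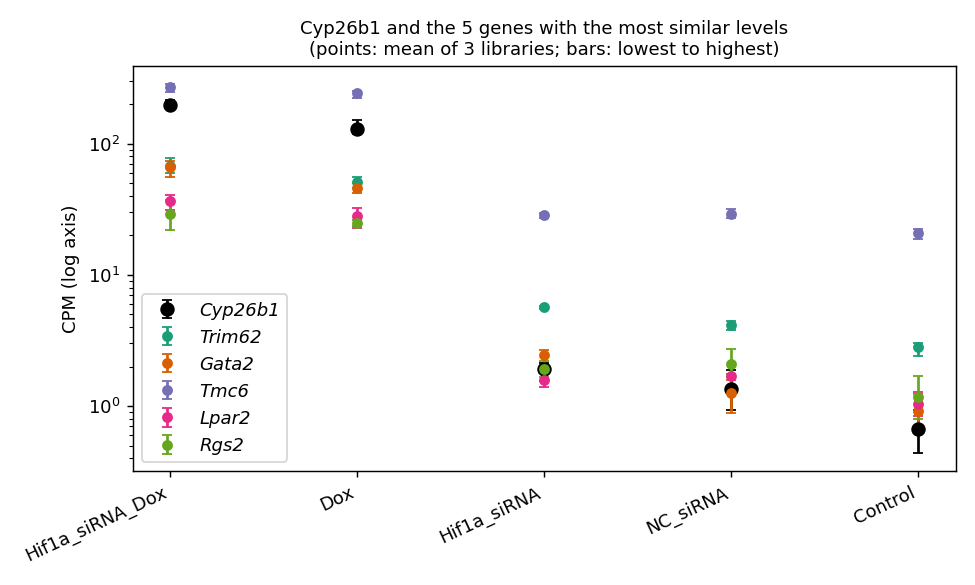
Mean CPM of 3 libraries by group on a log axis, with bars from the lowest to the highest library, for Cyp26b1 and the 5 genes most like it over the 15 libraries. All 6 are high in the drug-treated libraries and low in the others, with Gata2 at a mean of 66.1 CPM in Hif1a_siRNA_Dox and 0.921 CPM in Control.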

How the data were processed

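RNA-seq libraries of 15 B16.F10 samples, 3 per group, were used. The authors deposited unnormalized read counts for each gene. Tools listed in the submitters' processing notes are HISAT2 2.1.0 and Bowtie2 2.3.4.1 (aligners), StringTie 2.1.3b (assembly and quantification), Trimmomatic 0.38 and FastQC 0.11.7, and the build is mm10. Per the labels' protocols, the RNA came from RNeasy Mini columns and the library kit was TruSeq Stranded mRNA. The counting tool and its strand setting are not given in the sources used here. In Rara's span the annotation has 1 other gene, an snRNA gene away from its exons and not listed in the tables.

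Symbols missing from the tables were filled by gene ID from RefSeq (GRCm38.p6) for 1491 genes, and 29 stayed without one. Tests covered the 12721 genes that every group lists, in 1 edgeR 4.0.16 fit of all libraries in R 4.3.3 (TMM scaling, group term, robust quasi-likelihood F test, two-sided, 10 residual degrees of freedom). The filter on low counts (a minimum of 10 reads and a total of 15) removed 0 genes. The common biological coefficient of variation was 0.0907. P-values were adjusted by Benjamini-Hochberg across the 12721 genes in each of 6 comparisons, with a threshold of 0.05. SEs were derived from the fold change and the F statistic. CPM used TMM library sizes, and CPM per kilobase used the union of exons in GENCODE M21. The procedure was tested on simulated data.

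The members, lists and tests were chosen with earlier results of these data known. Pathway genes were named as the 3 largest called changes in each direction with at least 1 CPM in the higher group. Some genes that this rule names are not reported here, and they stay in every fit and count. Genes most like Cyp26b1 were the 5 with the highest r among genes of at least 5 CPM in their highest group, leaving out clone and prediction names. Aldh1a3 and Rarb were named for their role, after their values were seen. Alternatives were RLE and upper-quartile factors, DESeq2 1.42.0, an adjusted p under 0.01, other filters, a fit of the compared groups, a replicate block and leaving out each library. The labels call the replicates biological without saying what was separate, so the p-values reflect only the spread among these libraries, which may be technical. Replicates differed beyond counting noise, with a chi-square per degree of freedom of 3.58 to 34.81.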

Additional observations from a re-analysis of the deposited data

Results flagged for a closer look

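For 4 of 7 members the effect of doxorubicin differed between cells with the Hif1a siRNA and cells without siRNA. The test was of the difference itself, in edgeR's quasi-likelihood fit. It called 58.6% of all genes, so the count of members is near the background. The difference (effect after knockdown minus effect without siRNA, log2) was 1.88 for Dhrs3, 1.36 for Rarg, 0.37 for Rara and -1.44 for Rdh10. The Rara difference no longer passed without Hif1a_siRNA replicate 1 (adjusted p = 0.077, edgeR), without Hif1a_siRNA_Dox replicate 1 (adjusted p = 0.063, edgeR) or at a threshold of 0.01. Rarg and Dhrs3 had their lowest levels in Hif1a_siRNA, at 58.5 and 2.66 CPM, and Rdh10 had a higher level in Hif1a_siRNA, at 5.12 CPM, than in Control, at 1.39 CPM. The time from siRNA to harvest, the delivery of siRNA and the knockdown cannot be told apart in this difference.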

How the results depend on the processing

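Most single-gene values of the members and Hif1a held. Under settings other than leaving out a library, 416 were kept, 8 changed sign, 5 gained a call and 3 lost one. Leaving out a library, these numbers were 358, 3, 9 and 8. Kept means the same direction and side of the threshold, so values never called are included. For Cyp26b1 in Dox minus Control, Hif1a_siRNA_Dox minus Dox and the difference of drug effects, it means a move smaller than the spread among libraries. Values that changed sign were all near 0 and not called. For Dox minus Control, Rxrb gave -0.0246 with RLE factors, -0.022 in a fit of the compared groups and -0.0246 with DESeq2, and Rarg gave 0.0913 with upper-quartile factors. With upper-quartile factors Rxrb gave 0.0413 for Hif1a_siRNA_Dox minus Hif1a_siRNA, and Dhrs3 gave -0.0294 for Hif1a_siRNA_Dox minus Dox. The difference of drug effects for Rxra gave 0.0466 with RLE factors and 0.047 with DESeq2. Leaving out each library, these ran from -0.0893 to 0.0551 for Dhrs3 and from -0.103 to 0.0315 for Rxra. Upper-quartile factors moved the median of all genes by 0.13 in Dox minus Control and by 0.15 in Hif1a_siRNA_Dox minus Hif1a_siRNA.

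At an adjusted p under 0.01, pathway genes higher in Hif1a_siRNA_Dox than in Dox numbered 13 against 21, and members lower in NC_siRNA than in Control 1 against 2. Leaving out each library, members lower ran from 1 to 2 for Hif1a_siRNA_Dox minus Hif1a_siRNA, from 1 to 2 for NC_siRNA minus Control and from 1 to 2 for the difference of drug effects. Members higher ran from 2 to 6 for Hif1a_siRNA_Dox minus Dox and from 2 to 3 for the difference. The cause was not tested. With DESeq2, Cyp26b1 passed for knockdown (0.45, adjusted p = 0.044) and Rara for Hif1a_siRNA_Dox against Dox (0.23, adjusted p = 0.048), and in a fit of the compared groups Rdh11 passed for knockdown (-0.19, adjusted p = 0.0054, edgeR). Replicate numbers did not pair the samples (correlations of deviations from -0.16 to 0.064). A replicate block changed no member's call. With it, the difference of drug effects had 4 pathway genes higher against 6 and 9 lower against 10, 20 were higher in Hif1a_siRNA_Dox than in Dox against 21, and 8 were lower in NC_siRNA than in Control against 9. Few reads limit Cyp26b1 and Rdh10 in cells without doxorubicin, and also pathway genes such as Vdr, Crabp2 and Rdh5.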
